A study of Mus musculus with 122 samples.

Results

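RAD21, a subunit of the cohesin ring, was mapped by ChIPmentation in mouse embryonic stem cells that express a chimera of CTCF and its paralog CTCFL, and the peaks of each library were read on their own. The members are the 8 RAD21 libraries of the CLC and LCL lines, 2 replicates for each line and treatment, out of 122 samples in the series and 16 RAD21 libraries, and together they list 40295 peaks on 20 chromosomes (the autosomes and X). Both lines derive from E14Tg2a cells and carry CTCF-AID, in which an auxin-inducible degron with eGFP is fused to endogenous CTCF, together with the Tir1 protein that auxin (IAA) needs to degrade it, and a Dox-inducible transgene with FLAG and mRuby 2 at the Tigre locus. Each line was a selected clone. CLC joins the N and C termini of CTCF to the zinc fingers of CTCFL, and LCL joins the termini of CTCFL to the zinc fingers of CTCF. In D, Dox at 1 µg/ml induced the chimera and endogenous CTCF remained, and in ID, 500 µM IAA was added so that the chimera was present with CTCF degraded. The labels give 24 h of treatment and the treatment protocol 2 days. No label says that replicates came from separate cultures, so the spread between them may be technical. The most similar libraries, used for comparison, are the 8 RAD21 libraries of the lines with intact CTCF or CTCFL as the transgene, in the same treatments.

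Cohesin extrudes chromatin into loops and is held at CTCF sites, mainly on the side of the motif that the N terminus of CTCF faces, and in stem cells it is also found at active promoters where it is loaded. The zinc fingers of CTCF and CTCFL read nearly the same motif, and CTCFL, normally a testis protein, also goes to open promoters. The FLAG antibody recovers the chimera alone, and not endogenous CTCF. The 15 stem cell markers that were checked, Pou5f1 and Nanog among them, were all at 10 or more normalised counts in each of the 8 RNA libraries of these lines. So were 3 of 4 fibroblast, 3 of 4 endoderm, 1 of 2 mesoderm and 1 of 2 neural markers, so the lists differ mainly in level. Summed levels were 256362 to 342248 for the stem cell markers and 431 to 1056 for the fibroblast markers. They were 357.5 to 692 for endoderm, 17.4 to 37.1 for mesoderm and 83.6 to 202 for neural markers. These sums cover unequal numbers of genes.

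RAD21 peaks fell on a few kinds of sequence, and an example of each is printed because the libraries differed mainly in their mix. Each is the highest-scoring peak that met fixed rules in 1 library, outside the regions shared by nearly all libraries and with 2 chromosomes left out. Repeat examples held no motif match, motif examples no repeat, and the promoter example neither. Overlap with a FLAG site of its own line and treatment was required for Gm26585 (chosen in CLC D replicate 1), Gm43262 (CLC ID replicate 2) and Hepacam2 (LCL ID replicate 1). Its absence was required for Asb17 (LCL ID replicate 1), 0610040F04Rik and Snrnp70 (CLC D replicate 2). For each, 120 bases of GRCm38 around the middle of the repeat, the motif or the peak are shown. Scores are the mean −log10 q that MACS gave a broad peak. In the first 2, capitals mark runs of at least 4 CA or TG units. The motif sequences are printed on the strand of the CTCF motif, whose 14 positions are in capitals. In the last, capitals mark CG dinucleotides.
Repeat near Gm26585, chr10:22461956-22462075, plus strand, intergenic: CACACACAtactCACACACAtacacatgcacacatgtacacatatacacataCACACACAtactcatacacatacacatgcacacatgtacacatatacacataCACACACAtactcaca
Repeat near Asb17, chr3:153838144-153838263, plus strand, intron of Asb17os: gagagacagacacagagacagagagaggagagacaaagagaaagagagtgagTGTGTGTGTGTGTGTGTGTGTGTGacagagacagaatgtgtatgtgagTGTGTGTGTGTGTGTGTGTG
Motif near 0610040F04Rik, chr6:108710103-108710222, minus strand, intergenic: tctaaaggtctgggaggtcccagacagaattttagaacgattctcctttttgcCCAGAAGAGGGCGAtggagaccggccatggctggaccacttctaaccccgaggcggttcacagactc
Motif near Gm43262, chr13:53426661-53426780, minus strand, intron of Gm2762: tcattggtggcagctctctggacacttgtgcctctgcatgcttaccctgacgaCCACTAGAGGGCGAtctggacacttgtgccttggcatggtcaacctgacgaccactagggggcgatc
Motif near Hepacam2, chr6:3447510-3447629, minus strand, intergenic: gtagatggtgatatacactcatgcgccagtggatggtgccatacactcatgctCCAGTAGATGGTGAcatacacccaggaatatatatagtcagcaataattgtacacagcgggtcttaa
Promoter of Snrnp70, chr7:45395648-45395767, plus strand, exon: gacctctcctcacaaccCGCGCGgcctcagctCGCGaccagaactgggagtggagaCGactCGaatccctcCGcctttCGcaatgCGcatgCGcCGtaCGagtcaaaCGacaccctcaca

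The repeat near Gm26585 scored 5.99 in CLC D replicate 1 and also held a peak in replicate 1 of CLC ID (2.71), LCL D (3.11) and LCL ID (4.41), but in no replicate 2 library of these lines. It overlapped a FLAG site of CLC and of LCL in D. The repeat in the intron of Asb17os, which overlapped no FLAG site of the 4 lines, scored 15.0 and 10.2 in the replicates of CLC ID and 8.05 and 6.73 in those of LCL ID, and 5.74 in LCL D replicate 1. The motif near 0610040F04Rik scored 10.3 in CLC D replicate 2 without a FLAG site of CLC in D, and it held a peak in LCL D replicate 2 (8.46) and LCL ID replicate 1 (1.42). Near Gm43262, where all 4 proteins were bound in both treatments, the motif scored 1.31 and 4.02 in the replicates of CLC ID. It scored 3.17 in CLC D replicate 2, 4.35 in LCL D replicate 2 and 4.84 in LCL ID replicate 1. The motif near Hepacam2 was a FLAG site of LCL in D and ID and not of CLC. It scored 14.7 and 17.0 in the replicates of LCL D, 9.34 and 9.58 in those of CLC D and 9.22 in LCL ID replicate 1, with no peak in either replicate of CLC ID. The promoter of Snrnp70, which encodes a protein of the U1 spliceosomal particle, held 14 CG in the 120 bases and a peak in replicate 2 of CLC D (6.77) and of LCL D (5.38) alone among the 8 libraries.

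The number of RAD21 peaks was far lower in ID than in D in replicate 2 of both lines, and not in replicate 1. CLC D had 1491 peaks in replicate 1 and 10771 in replicate 2, and CLC ID had 2470 and 348. In LCL, D had 5292 and 14913 peaks and ID had 4847 and 163. Replicate 2 thus had more peaks than replicate 1 in D and fewer in ID, in both lines, and the D and ID libraries overlapped in CLC but not in LCL. From D to ID the log2 ratio was 0.73 in replicate 1 and −4.95 in replicate 2 of CLC, and −0.13 and −6.52 in LCL. The mean of −2.72 did not pass an exact permutation test that exchanged treatments within lines (p = 0.167, two-sided, 36 arrangements, smallest possible p 0.0556; Benjamini-Hochberg adjusted p = 0.667 over the 12 tests of this report). Peak names carry the number 5 as a lane in every replicate 1 library and 6 in every replicate 2 library of the 16, so that replicate and lane cannot be told apart. Depth is unknown, since the peak lists give no reads.

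**Figure D1:**
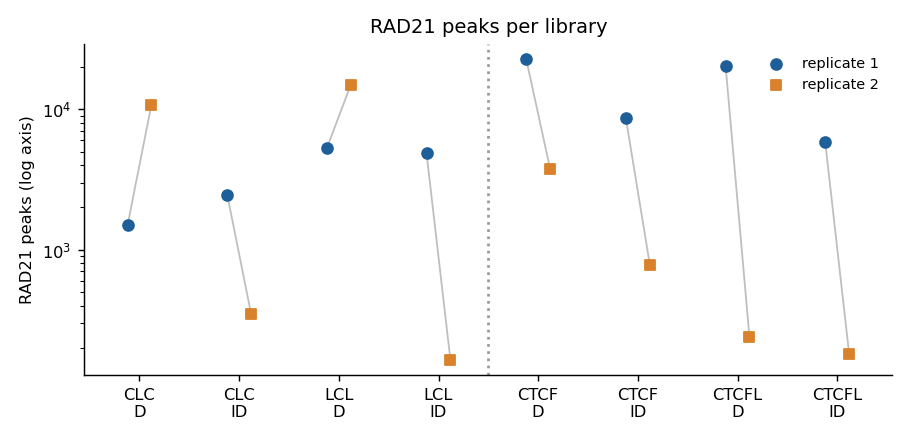
RAD21 peaks in each of the 16 libraries (log axis), by line and treatment, with replicate 1 as circles and replicate 2 as squares joined by a line. In CLC and LCL, replicate 2 was above replicate 1 in D and below it in ID. In the lines with CTCF or CTCFL, to the right of the dotted line, replicate 1 was above replicate 2 in both treatments.

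The replicates also differed in what their peaks held. Peaks with 8 letters of CACACACA or TGTGTGTG, read on both strands, made up 62.4% of CLC D replicate 1 and 64.0% of CLC ID replicate 1, and 51.6% and 49.1% of LCL D and LCL ID replicate 1. In replicate 2 the shares were 10.1% and 5.46% in CLC and 13.7% and 7.36% in LCL. The same peaks moved by 10 kb gave 3.07% to 10.6%, so replicate 1 of all 4 groups was far above that level and replicate 2 near it. Replicate 1 of the CTCF and CTCFL lines likewise had 30.8% to 65.3%. The repeat-bearing peaks had a median score between 1.404 and 1.95 in replicate 1, and the other peaks of the same libraries between 1.57 and 2.27. Interspersed and simple repeats together, as masked in the genome, covered 53.4% to 74.8% of the bases in replicate 1 peaks of the chimera lines, against 28.4% to 31.1% after moving them.

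The CTCF motif followed another pattern. A matrix of the motif was drawn from FLAG peaks of the CTCF line in ID, and a match was counted above a threshold fixed on moved sequence. Matches lay in 17.0% and 31.3% of the peaks in the replicates of CLC D, and in 2.19% and 31.03% of those in CLC ID. In LCL they lay in 27.1% and 41.9% of the peaks in D and in 23.1% and 2.45% in ID, and moved peaks gave 2.01% to 6.27%. Each line in ID therefore had a replicate at the level of moved peaks, replicate 1 of CLC and replicate 2 of LCL, and a replicate above it, with 108 and 1118 motif-bearing peaks. The mean change was −14.7 percentage points, with the same sign in 4 of 4 pairs of equal replicate number, and did not pass the test (exact permutation p = 0.167, adjusted 0.667). It was −33.0 with peaks of a −log10 q of at least 3 and −34.05 with 163 top peaks per library. Both were at the smallest exact permutation p of 0.0556. With a fixed window of 500 bp on either side of each peak middle, and a threshold from such windows moved, the change was −5.21 (exact permutation p = 0.389). That window was wider than most peaks, whose median width was 73 to 257 bp in the 8 libraries, so it added flanking sequence. Without the repeat-bearing peaks the motif share was 40.5% and 5.74% in replicate 1 of CLC D and ID and 52.2% and 43.1% in replicate 1 of LCL D and ID.

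A further part of the smallest libraries was shared with nearly every other library. Of 45349 merged regions over the 16 RAD21 libraries, 136 held a peak in at least 12 and 45 in all 16. They took 35.6% of the peaks of CLC ID replicate 2 and 54.6% of those of LCL ID replicate 2, but 0.858% to 7.38% of the other 6 libraries. As numbers, such peaks varied less, from 89 in LCL ID replicate 2 to 141 in LCL ID replicate 1. The high shares thus went with short peak lists. Replicate 2 of the CTCFL line had 49.2% of 238 peaks in D and 55.8% of 181 in ID. Of the 136 regions, 91.9% overlapped a FLAG site of some line and 30.9% held the motif.

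**Figure D2:**
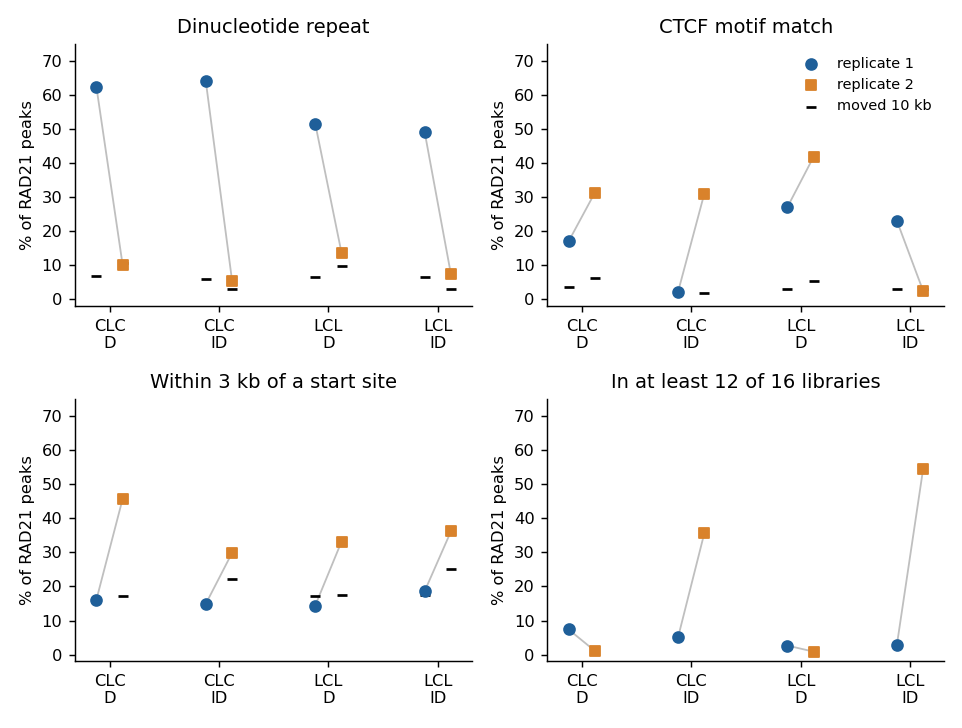
Percent of RAD21 peaks in each chimera library that held the dinucleotide repeat, matched the CTCF motif, had their middle within 3 kb of a start site, or lay in a region with a peak in at least 12 of the 16 RAD21 libraries. Circles are replicate 1, squares replicate 2, and black dashes the same peaks moved by 10 kb. The repeat marks replicate 1 in every group and promoters mark replicate 2. The shared regions take the largest share in replicate 2 of ID, where the peak lists are shortest.

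Overlap with the FLAG sites of the same line was above the level of moved peaks in all 8 libraries but had no common direction from D to ID. A FLAG site here is a region with a FLAG peak in both FLAG replicates, and there were 7599 such sites for CLC in D, 17876 in ID, 27579 for LCL in D and 34698 in ID. In CLC, 56.1% and 11.04% of RAD21 peaks lay at a FLAG site in the replicates of D and 23.2% and 71.0% in those of ID. In LCL, 50.9% and 56.2% did in D and 37.1% and 42.9% in ID. Moved by 10 kb, 0.780% to 3.82% of peaks overlapped a site. Both LCL libraries of ID were below both of D, by 13.8 and 13.3 percentage points at equal replicate number, whereas CLC went down by 32.8 in replicate 1 and up by 59.9 in replicate 2. The mean change over both lines was 0.013 percentage points (exact permutation p = 1). For LCL alone, 2 libraries against 2 cannot give a p under 0.333.

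Read the other way, the share of FLAG sites with a RAD21 peak was lower in ID than in D in all 4 pairs. In CLC it was 10.9% and 15.6% in D and 3.13% and 1.35% in ID, and in LCL 9.68% and 29.9% in D and 5.12% and 0.196% in ID. The D and ID libraries did not overlap in either line. The mean change was −14.1 percentage points, and its exact permutation p of 0.0556 is the smallest that 36 arrangements allow (adjusted 0.667). This share is limited by the number of peaks. With 163 peaks, the number in the smallest library, taken from each library, the share was 1.26% and 0.855% in CLC D, 0.375% and 0.548% in CLC ID, 0.413% and 0.573% in LCL D and 0.291% and 0.196% in LCL ID (mean change −0.424, exact permutation p = 0.0556). D and ID did not overlap there, but both lines had more FLAG sites in ID, which lowers the share at equal peak numbers. Of the same top peaks, 58.9% and 39.3% lay at a FLAG site in CLC D and 42.9% and 62.6% in CLC ID. In LCL these shares were 70.6% and 96.9% in D and 63.2% and 42.9% in ID. With all peaks and the FLAG sites of D and ID joined, the mean change was −10.5 (exact permutation p = 0.111). Sites with a RAD21 peak in both replicates numbered 149 of 7599 for CLC D, 94 for CLC ID, 1797 for LCL D and 64 for LCL ID.

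**Figure D3:**
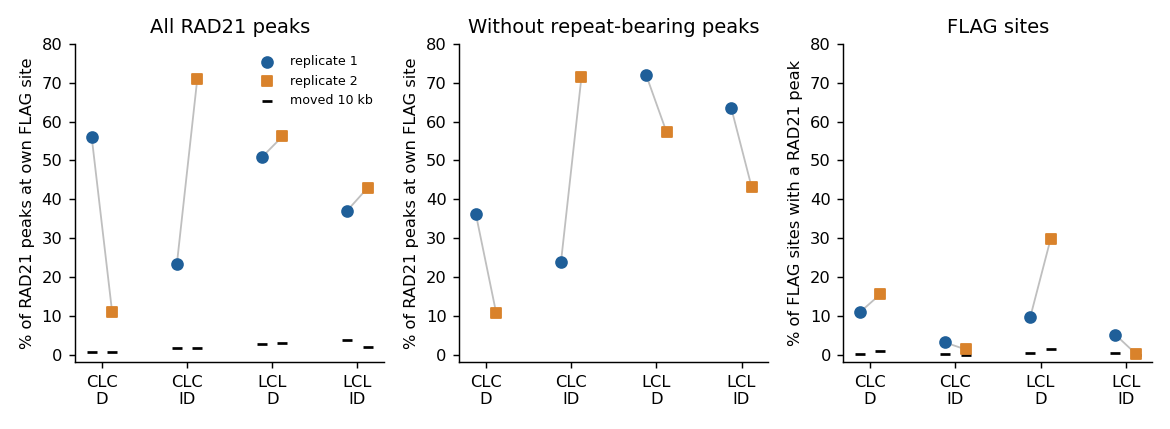
Left, percent of all RAD21 peaks at a FLAG site of the same line and treatment; middle, the same without peaks that hold the dinucleotide repeat; right, percent of FLAG sites with a RAD21 peak. Circles are replicate 1, squares replicate 2 and dashes positions moved by 10 kb. In the right panel every ID library lies below every D library of its line, and in the left panels CLC shows no common direction.

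Split by kind, peaks lay at a FLAG site of the chimera to different extents, in an order that differed between libraries. Motif-bearing peaks without the repeat lay at an LCL site in 92.7% and 88.6% of cases in the replicates of LCL D and in 98.8% (1051 of 1064) in LCL ID replicate 1. In CLC D, with CTCF present, only 23.3% and 23.7% of them lay at a CLC site, although 100% and 94.5% lay at a FLAG site of some line, and in CLC ID replicate 2, with CTCF degraded, 95 of 104 (91.3%) did. In CLC ID replicate 1 there were 51 such peaks, of which 41 lay at a CLC site. Peaks of D were set against 7599 CLC sites, 50.4% with the motif, and peaks of ID against 17876, 76.5% with it. Of all peaks of CLC D replicate 2, 11.04% lay at a CLC site of D and 33.2% at one of ID, and for replicate 1 56.1% and 37.8%. The part of the site sets in the contrast was not tested. Promoter peaks with neither motif nor repeat lay at a CLC site in 4.54% of 3590 cases in CLC D replicate 2 and at an LCL site in 32.8% of 3148 cases in LCL D replicate 2.

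Repeat-bearing peaks overlapped FLAG sites to different extents. They lay at a CLC site in 68.0% of cases in CLC D replicate 1, where 53.3% of the CLC sites held the repeat themselves (19.7% when moved), and at an LCL site in 31.03% in LCL D replicate 1 and 9.71% in LCL ID replicate 1. In the other 3 FLAG sets 28.1% to 32.1% of sites held the repeat, against 26.0% to 27.3% when moved. CLC sites of D with the repeat had a RAD21 peak of replicate 1 in 17.2% of cases and the other CLC sites in 3.78%, while in replicate 2 the order was turned, with 8.76% and 23.4%. LCL sites of D showed 15.7% and 6.81% in replicate 1 and 31.3% and 29.2% in replicate 2. Without repeat-bearing peaks, the share of RAD21 peaks at an own FLAG site was 36.3% and 10.6% in CLC D, 23.8% and 71.4% in CLC ID, 72.0% and 57.3% in LCL D and 63.5% and 43.05% in LCL ID. Among these peaks too, ID was below D in both LCL pairs, and CLC again went down in replicate 1 and up in replicate 2. The part of the repeats in the difference between replicates was not tested.

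The strongest FLAG sites held RAD21 most often in the libraries with most motif peaks, but not in every library. From the weakest to the strongest of 4 equal groups of LCL sites by FLAG score, RAD21 was found at 12.3%, 20.8%, 34.7% and 51.8% in LCL D replicate 2. In LCL ID replicate 1 these groups had 1.25%, 0.945%, 1.95% and 16.3%, so that the share stood apart in the strongest group. CLC D replicate 2 had 10.5%, 9.95%, 15.6% and 26.2%, whereas CLC D replicate 1 was between 9.64% and 13.2% with no order. LCL D replicate 1 rose less, with 8.08%, 7.70%, 9.80% and 13.1%. CLC ID replicate 1 had its highest share in the weakest group (6.87%, 2.66%, 1.23% and 1.77%). In CLC ID replicate 2 the shares were 0.515%, 0.828%, 1.14% and 2.91%.

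CLC had more FLAG sites with CTCF degraded, and most of its ID sites, 12970 of 17876, overlapped no CLC site of D. These ID-alone sites held RAD21 in 1.55% and 18.0% of cases in the replicates of CLC D, against 7.34% and 24.4% of the 4906 CLC sites found in both treatments. In CLC ID they held it in 1.38% and 0.925% of cases, against 7.77% and 2.47%. For LCL, the 9957 ID-alone sites held RAD21 in 1.05% and 8.35% of cases in the replicates of LCL D, against 8.10% and 32.3% of the 24741 sites found in both treatments, and in 0.673% and 0.131% in LCL ID, against 6.91% and 0.222%. In all 8 libraries the ID-alone sites had the lower share.

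The promoter share of RAD21 peaks separated the replicates rather than the treatments. Within 3 kb of a start site lay 16.1% and 45.7% of the peaks of CLC D, 14.9% and 29.9% of CLC ID, 14.4% and 33.2% of LCL D and 18.6% and 36.2% of LCL ID. Moved by 10 kb, 15.6% to 25.2% did, so that replicate 1 was at that level and replicate 2 above it in every group. From D to ID the share was lower by 1.20 and 15.9 percentage points in CLC and higher by 4.21 and 3.02 in LCL, with a mean change of −2.45 (exact permutation p = 0.889, adjusted p = 1). With peaks of a −log10 q of at least 3 or 163 top peaks per library the mean change was 5.82 and 6.44. The median CpG density of the peaks was 2.45 per 100 bp in CLC D replicate 2 and 1.63 in LCL D replicate 2, against 0.34 and 0.44 in the first replicates.

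Protein-coding genes with a RAD21 peak at the promoter were 0.529% and 20.1% of 21755 in the replicates of CLC D, and 0.735% and 0.230% in those of CLC ID. In LCL they were 1.61% and 18.0% in D and 2.23% and 0.120% in ID. In the RNA libraries of the same line and treatment, the 4287 measured genes with a peak in CLC D replicate 2 had a median of 751 normalised counts, and 90.0% reached 10, whereas genes without a peak had a median of 24.5. LCL D replicate 2 showed a median of 693 for 3846 genes against 32.5. Genes with a peak in replicate 1 had medians of 54.3 in CLC D and 43.9 in LCL D, under the 81.0 and 86.3 of the other genes. In ID the 476 genes with a peak in LCL ID replicate 1 had a median of 146 against 77.3, while in the other 3 ID libraries, with 26 to 158 such genes, it was below that of the other genes. These medians were 12.8 against 82.1 and 15.7 against 81.1 in the replicates of CLC ID and 0 against 78.9 in LCL ID replicate 2. Levels are given per gene without correction for length.

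Among the gene lists, promoters with a peak were nearly all in replicate 2 of D, and each count is set against the 20.1% of CLC D and 18.0% of LCL D above. Those shares are of all protein-coding genes and were not matched to the lists for RNA level. Of the 23 imprinted genes, 17 are protein-coding. Of 14 cohesin genes, 7 held a peak in CLC D replicate 2 and 5 in LCL D replicate 2, with Nipbl, the cohesin loader, Wapl, which releases cohesin, and Pds5b, its partner, in both, and Rad21 in CLC D alone. Of 15 stem cell markers, 6 and 4 held one, with Klf2, Esrrb, Tdgf1 and Tbx3 in both libraries and Pou5f1, Sox2 and Nanog in neither. Ribosomal protein genes gave 22 and 20 of 83, near the background. Of 39 Hox genes 3 and 5 held a peak, Hoxa5 and Hoxc10 in both lines, and of 56 clustered protocadherins 5 and 6, Pcdhga3, Pcdhgb6 and Pcdhgb7 in both. Of 23 imprinted genes, 7 and 4 did, with Grb10, Impact and Zrsr1 in both. In the other 6 libraries each list had 0 to 2 members with a peak, among them Hoxb8 and Hoxc10 in LCL ID replicate 1 and Zim1 in replicate 1 of both ID groups. No member of any list had a peak at its promoter in both replicates of a group. Rad21 itself was at 14187 and 14634 normalised counts in CLC D, 11449 and 13513 in CLC ID, 12627 and 12928 in LCL D and 11460 and 10628 in LCL ID. In these bulk libraries, fewer cells that express a gene and less RNA per cell cannot be told apart.

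Of the loci that the study displayed, Stra8, a gene induced at the onset of meiosis, was the only promoter with RAD21 in more than 3 of the 8 libraries. On chromosome 6, where Stra8 spans 34920163 to 34939344 of GRCm38, the peak scored 4.53 and 3.75 in LCL D, 2.11 in LCL ID replicate 1 and 1.22 in CLC ID replicate 1, and both chimeras had a FLAG site there in D and ID. Hoxb8, a homeobox gene, scored 5.66 in LCL D replicate 2 and 1.67 in LCL ID replicate 1. FLAG-LCL was found there in both treatments and FLAG-CLC in ID alone. Rapgef1 held peaks in LCL D replicate 2 (2.17) and LCL ID replicate 1 (2.57), and the Ctcfl promoter in the same libraries (1.19 and 1.74). Zbtb45 scored 3.36 in CLC D replicate 2, 1.90 in LCL D replicate 2 and 1.15 in LCL ID replicate 1. Mrps33, Clasp1, Gadd45g and Steap1 held RAD21 in replicate 2 of D in both lines, at 1.28 to 3.31, and in no ID library. Prss50, Gal3st1, Stat2, Hoxb9, Igf2 and H19 held none in any of the 8.

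To set the chimeras beside the intact proteins, FLAG sites of the CTCF line in ID and of the CTCFL line in D were divided into classes. These were 20562 CTCF-only, 9755 CTCF+CTCFL and 12539 CTCFL-only sites. Sites that overlapped only in part were left in the -only classes. Of the CTCFL-only sites, 4372 overlapped a FLAG site of the CTCF line in ID and 6309 one in D. Of the CTCF-only sites, 4412 overlapped a FLAG site of the CTCFL line in D. In replicate 1 of the CTCF line in D, RAD21 lay at 34.7% of those 6309 sites. It lay at 6.71% of the other CTCFL-only sites. Over all 3 classes, RAD21 was found at 2.20% and 14.8% of sites in the replicates of CLC D, 1.83% and 0.707% in CLC ID, 7.52% and 24.4% in LCL D, and 6.15% and 0.187% in LCL ID. In D, CTCF+CTCFL sites held it most often in each of the 4 chimera libraries, in 3.42% and 21.6% of cases in CLC and 11.7% and 38.5% in LCL. CTCF-only sites held it in 1.49% and 10.3% in CLC and 6.49% and 20.9% in LCL, and CTCFL-only sites in 2.42% and 17.0% and in 5.92% and 19.2%. With all peaks, CTCFL-only sites were thus above CTCF-only sites in both replicates of CLC D and below them in both of LCL D. Without repeat-bearing peaks the order turned in CLC D replicate 1, with 0.622% of CTCFL-only and 0.836% of CTCF-only sites. It was kept in CLC D replicate 2 (15.3% and 9.22%). With all peaks of that library, CTCFL-only and CTCF-only sites had 23.6% and 16.5% at promoters and 11.2% and 8.70% elsewhere. In replicate 1 of the CTCF line in D, the shares in the same order (shared, CTCF-only, CTCFL-only) were 58.7%, 46.1% and 20.8%, and in the CTCFL line 56.8%, 42.04% and 19.4%. Replicate 2 was far lower, with 15.7%, 9.29% and 3.89% for CTCF and 0.974%, 0.370% and 0.223% for CTCFL.

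The 4 chimera libraries of D did not pass a test against the 4 of the CTCF and CTCFL lines in any class. Chimera minus parent differences were −14.7 percentage points at CTCF-only sites (exact permutation p = 0.343, 70 arrangements, smallest possible p 0.0286), −14.2 at CTCF+CTCFL sites (p = 0.4) and 0.046 at CTCFL-only sites (p = 1). Within each group the replicates differed, with replicate 2 the higher in the chimera lines and replicate 1 in the CTCF and CTCFL lines.

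**Figure D4:**
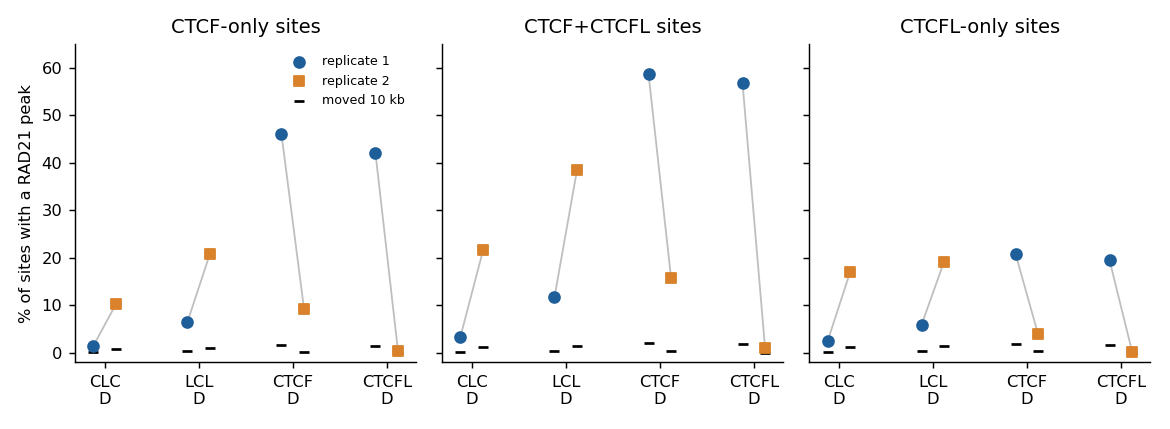
Percent of the sites of each class (CTCF-only left, shared middle, CTCFL-only right) with a RAD21 peak in D, by line, with circles for replicate 1, squares for replicate 2 and dashes for sites moved by 10 kb. CTCF+CTCFL sites are highest in CLC and LCL, and the replicates of the CTCF and CTCFL lines lie in the opposite order to those of the chimeras.

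Sites bound by the chimera itself were compared with unbound sites of the same class. In LCL D replicate 2, RAD21 lay at 29.1% of bound and 7.19% of unbound CTCF-only sites, at 42.2% and 5.87% of CTCF+CTCFL sites and at 28.6% and 9.33% of CTCFL-only sites. In CLC D replicate 2 the shares were 20.6% and 9.43%, 26.8% and 19.2%, and 18.7% and 16.7%, a smaller gap than in LCL D replicate 2 in each class. In replicate 1 it was not smaller over all sites, with 6.96% and 1.04%, 7.47% and 1.62%, and 11.2% and 0.696% in CLC D and 8.70% and 2.83%, 12.3% and 6.98%, and 8.12% and 3.58% in LCL D. At sites without the repeat, the gap in replicate 1 was smaller in CLC D in each class. There CLC D had 1.65% and 0.789%, 4.17% and 1.50%, and 1.72% and 0.452%. LCL D had 7.09% and 1.94%, 10.4% and 1.77%, and 4.45% and 0.434%. With CTCF degraded, LCL ID replicate 1 showed 11.3% of 9084 bound CTCF+CTCFL sites and 23.2% of the unbound ones. The repeat turned this order: without it, the bound sites held RAD21 in 10.4% of cases and the unbound in 2.55%, and with it 46.2% of unbound sites did. CLC ID showed 2.52% of bound and 3.11% of unbound CTCF+CTCFL sites in replicate 1, and 1.82% and 0.0818% in replicate 2. At sites without the repeat, the order in CLC ID replicate 1 was turned as well, with 1.54% of bound and 0.351% of unbound sites. LCL ID replicate 2 showed 0.495% and 0.596%.

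How many RAD21 peaks D and ID shared depended on the side from which they were counted, since a short list limits the share of a long one. Of the peaks of CLC D, 29.6% of replicate 1 were also in CLC ID replicate 1 and 2.10% of replicate 2 were among the 348 regions of CLC ID replicate 2. From the ID side, 18.0% of CLC ID replicate 1 and 66.7% of CLC ID replicate 2 were in CLC D of the same number, and 34.02% and 65.6% for LCL. Within CLC D, 24.0% of replicate 1 was found in replicate 2. Of LCL D replicate 1, 31.2% were in LCL ID replicate 1, and 37.5% in LCL D replicate 2. Seen from CLC D, the same replicate number in the other line shared more. Of CLC D replicate 1, 60.2% lay in LCL D replicate 1, and 54.2% of CLC D replicate 2 in LCL D replicate 2. LCL D replicate 2 had 39.3% in CLC D replicate 2 and 13.3% in LCL D replicate 1. LCL D replicate 1 went the other way, with 17.0% in CLC D replicate 1. In ID, replicate 1 of each line shared more with the other line. Replicate 2 did not, with 30.2% of CLC ID in LCL ID replicate 2 and 45.1% in CLC ID replicate 1. For LCL ID replicate 2 it was 63.8% in CLC ID replicate 2 and 72.4% in LCL ID replicate 1. Regions with a peak in both replicates numbered 356 in CLC D, 155 in CLC ID, 1983 in LCL D and 117 in LCL ID. The LCL D regions lay at an LCL site in 88.5% of cases and held the motif in 75.3%, the CLC D regions in 39.6% and 61.2%. Of the 1983 LCL D regions, 739 had a peak in LCL ID replicate 1 and 83 in replicate 2.

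Regions found in all 4 libraries of a line numbered 69 in CLC and 75 in LCL, and 66 and 71 of them belonged to the 136 regions shared by at least 12 RAD21 libraries. Of the 5 strongest at a FLAG site, 4 were near the same genes in both lines, a region near the lincRNA Gm33838 on chromosome 9 with scores of 33.4 to 38.02 in CLC and 28.8 to 43.5 in LCL, and regions near Gm28502 on chromosome 15, Aida on chromosome 1 and Pak3 on chromosome X. None of the 5 strongest in either line held a match to the motif, and each had a peak in all 16 libraries. Near Gm10800 on chromosome 2, the region in CLC was 80.1% masked repeat. Among the strongest without a FLAG site in ID were regions near Ankle1 in both lines and near Gm9075 in LCL, 97.4% masked repeat.

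Around the motif, RAD21 peaks of replicate 2 were shifted to the downstream side, which lies after the 3′ end of the motif as the matrix is written. For peaks at 1 of 18408 motif-bearing CTCF sites, the middle of the peak was at a median of 30 bp downstream in CLC D replicate 2 (2951 peaks, quartiles −13 and 73) and 24 bp in LCL D replicate 2 (5549 peaks, −14 and 64). Downstream of the motif lay 68.4% and 65.2% of them. In replicate 1 the medians were 7 and 6 bp, with 56.0% and 55.3% downstream. CLC ID replicate 2 had 17 bp over 150 peaks (67.3%) and LCL ID replicate 1 had 2 bp over 1182 peaks (52.3%), and the other ID libraries had 91 and 14 such peaks. Replicate 2 of the CTCF line had 71.3% downstream in D and 73.0% in ID.

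**Figure D5:**
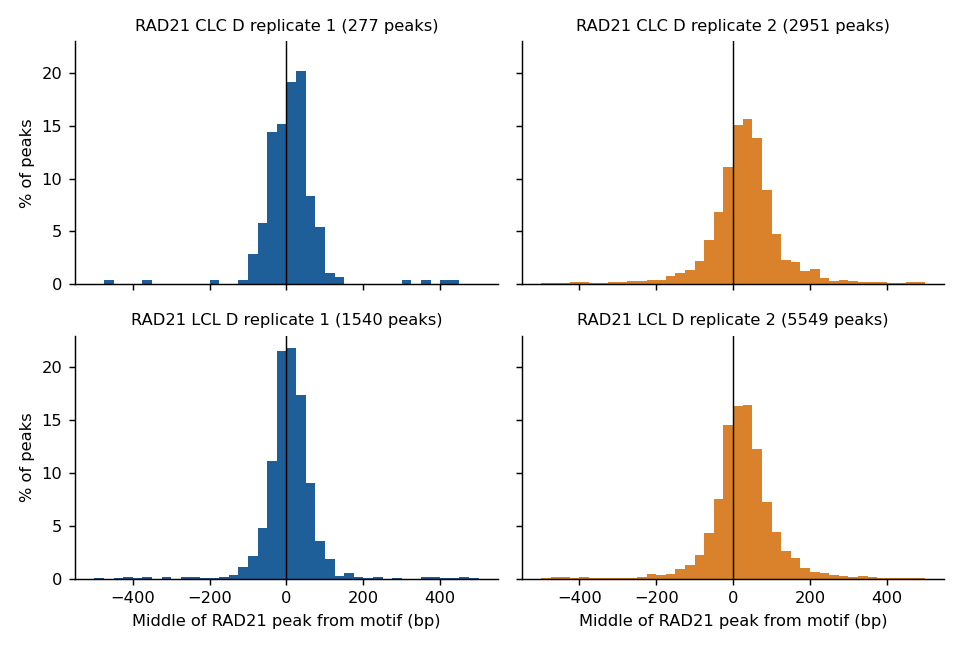
Distance from the CTCF motif to the middle of the RAD21 peak (bp, downstream positive, bins of 25 bp) as percent of peaks, for the 4 D libraries. The replicate 2 libraries of CLC and LCL (right) lean downstream, with medians of 30 and 24 bp, while the replicate 1 libraries (left) centre within 7 bp of the motif.

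At Hi-C domain boundaries of the same line and treatment, read as the middle of the gap between neighbouring domains and 40 kb on either side, motif-bearing RAD21 peaks of D were found more often than the other kinds. With the hicratio domains, 38.3% and 28.1% of motif-bearing peaks lay at a boundary in CLC D and 31.6% and 27.4% in LCL D, against 11.01% to 12.2% after a move of 500 kb. In LCL ID replicate 1 the share was 23.5% of 1064 peaks (11.7% moved) and in CLC ID replicate 2 17.3% of 104, the same as when moved. Repeat-bearing peaks of D were there in 13.1% to 16.3% of cases. In ID, promoter peaks with neither motif nor repeat had the highest shares, in LCL ID replicate 2 level with motif-bearing peaks (2 of 4). They were 39.01% of 182 and 47.3% of 74 in CLC and 30.1% of 375 and 50.0% of 56 in LCL, against 3.57% to 9.89% moved. In D the shares of promoter peaks were 32.8% of 64 and 17.8% of 3590 in CLC and 29.3% of 229 and 17.0% of 3148 in LCL, against 6.25% to 13.1% moved. With the crane domains these promoter peaks gave 19.8% and 20.3% in CLC ID and 17.3% and 10.7% in LCL ID, the last below the 12.1% of the peaks of no other kind, and the motif-bearing peaks of D gave 17.2% to 20.3%, against 7.49% to 9.87% moved. Hi-C cells were treated for 4 days by the protocol, and the boundaries numbered 2956 in D and 2585 in ID for CLC and 2860 and 2513 for LCL by hicratio, and 3156, 3018, 3145 and 3040 by crane.

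The change from D to ID in the chimera lines did not pass a test against that in the CTCF and CTCFL lines for any measure. The log2 ratio of peak numbers averaged −2.72 in the chimera lines and −1.47 in the parents (difference −1.25, exact permutation p = 0.486). The share of RAD21 peaks at an own FLAG site changed by 0.013 and −9.10 percentage points (difference 9.12, p = 0.771), and the share of FLAG sites with RAD21 by −14.1 and −16.5 (difference 2.44, p = 0.857), both by exact permutation. For the promoter share the changes were −2.45 and −0.20 (difference −2.25, exact permutation p = 0.857). With 4 changes a side, each spread over a wider range than these differences, similarity is not shown.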

How the data were processed

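RAD21 and FLAG ChIPmentation of the CLC, LCL, CTCF and CTCFL lines were used, with RNA-seq and Hi-C of CLC and LCL. Per the study's methods, unique Bowtie2 alignments to GRCm38/mm10 were stripped of duplicates (Picard), and the authors ran MACS on every replicate with a q threshold of 0.05, in broad mode for RAD21. The methods and file names disagree on the MACS version, and the control library is not stated. The deposited peak lists give a −log10 q (a mean over broad peaks) and a fold enrichment, both made by MACS for the authors. The RNA values are counts normalised by the authors (unit signal, gene counts scaled per library), as deposited. Hi-C domain lists of 2 callers, crane and hicratio, were used as deposited, on a grid of 40 kb. The list of each caller belongs to a different Hi-C replicate, so caller and Hi-C replicate cannot be told apart. Depth of the ChIP libraries is unknown, so no counting interval is given.

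Peaks on the autosomes and X were kept, overlapping ones within a list were merged, and an overlap needs at least 1 bp. Positions moved by 10 kb gave the background. Start sites were the 75451 positions of 53843 genes in GENCODE vM21. Classes needed an overlap above 66% of both sites. The CTCF matrix of 14 positions was re-estimated for 10 rounds with 0.5 added to each count within 50 bp of CTCF ID FLAG summits, and a match scores above 11.9, the 95th percentile of moved windows. Kinds of peak exclude each other in the order repeat, motif, promoter, other. Tests were exact permutations over libraries, two-sided, tested on simulated data. Python 3.11.15, numpy 2.4.6, scipy 1.17.1, pysam 0.24.0 and matplotlib 3.10.9 were used. Named genes are the loci the study shows, the 5 strongest regions per line with RAD21 in all 4 libraries with and without a FLAG site, and lists of promoters. Members, lists, tests and the repeat were chosen with earlier results of these data known. Egr1, Prkcb, Zkscan2, Dll1, Tgfb1, Cited1, Hoxb7 and Hoxb5 held RAD21 at the promoter in 0 or 1 of the 8 libraries and are not described. Alternatives were a −log10 q of at least 3 for RAD21 or 5 for FLAG, equal numbers of top peaks, other FLAG sets, promoter windows, classes and motif windows, a replicate block and leaving out each library. IgG controls were not analysed here.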

Additional observations from a re-analysis of the deposited data

Results flagged for a closer look

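The change from D to ID in the promoter share of RAD21 peaks went one way in both replicates of CLC and the opposite way in both of LCL. It was −1.20 and −15.9 percentage points in CLC and 4.21 and 3.02 in LCL, a difference between the mean changes of −12.1 points. The difference was not tested, since 2 pairs against 2 cannot give a small p. With peaks of a −log10 q of at least 3 the share in CLC replicate 1 was 24.7% in D and 30.04% in ID, and with 163 top peaks it was 27.6% and 32.5%, with replicate 2 at 30.7% in both, so the pattern was lost. No group has over 2 RAD21 libraries, too few for a search for samples far from their group.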

How the results depend on the processing

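Of 156 recomputed values, 128 kept their direction and 28 turned it. No p was under 0.05, but the D against ID tests of 36 arrangements cannot go under 0.0556, so their side of the threshold says nothing about stability. The mean change from D to ID in the share of RAD21 peaks at an own FLAG site, 0.013 percentage points, became −5.85 with a −log10 q of at least 3, −13.5 with equal numbers of top peaks, −2.50 with FLAG replicate 2 alone, −1.97 with FLAG sites of D or ID joined and −7.96 without regions shared by at least 12 libraries, and ran from −11.9 to 11.9 on leaving out a library. Without CLC D replicate 2 or CLC ID replicate 2 it was −11.2 and −11.9. The change in promoter share became 5.82 with a −log10 q of at least 3 and 6.44 with equal numbers of peaks, and ran from −9.87 to 4.96 when a library was left out, the latter without CLC D replicate 2. With equal numbers of top peaks the chimera minus parent difference at CTCF+CTCFL sites became 0.077, and with classes drawn from CTCF D that at CTCFL-only sites became −3.66 (−3.58 to 3.28 on leaving out a library). The differences in change between chimera and parent lines ran from −2.40 to 0.019 for peak number, the latter without LCL replicate 2, from −10.9 to 20.1 for peaks at a FLAG site, from −3.66 to 7.87 for FLAG sites with RAD21 and from −4.48 to 2.21 for promoters. The motif change of −14.7 became −33.0 with a −log10 q of at least 3, −34.05 with equal numbers of top peaks and −21.3 without repeat-bearing peaks (each p = 0.0556, exact permutation). It became −5.21 with fixed windows around the peak middles, which were wider than most peaks. The change in FLAG sites with RAD21 became −3.60 with a −log10 q of at least 3, −0.424 with equal numbers and −10.5 with FLAG sites of D or ID joined. Leaving out a library moved the log2 change in peak number between −3.94 and −1.49, FLAG sites with RAD21 between −19.1 and −9.02 and the motif share between −21.9 and −7.47. Leaving out repeat-bearing peaks or shared regions, and the block in the class tests, were chosen after seeing the data. The cause was not tested.

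The replicate number goes with the lane in the peak names, and in every group with the shares of repeat-bearing and promoter peaks, but the labels do not say that it pairs samples. The difference between replicates had the same sign in D and ID in 4 of 10 comparisons of line and measure. With the number as a replicate block, the mean changes are the same by construction: −2.72 (log2) in peak number, 0.013, −14.1, −2.45 and −14.7 percentage points in the FLAG, FLAG-site, promoter and motif shares, and no p can go under 0.125.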
